A study of Homo sapiens with 4 samples.

Results

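The genes examined here are 60 inflammatory cytokine and NF-κB genes, namely cytokines and chemokines, their receptors, TNF receptor family members, the NF-κB subunits with their inhibitors, and well-known targets and feedback regulators of these pathways. They were chosen by name, with earlier results of these data known. A gene was counted when the deposited table held at least 1 protein-coding transcript of its symbol. This was so for 51 of the 60 genes, among 12120 protein-coding genes in all. The table comes from MDA-MB-231 cells, a human line derived from a triple-negative breast cancer. They were given the solvent DMSO alone or 10 µM KH-3, a small molecule inhibitor of the RNA-binding protein HuR, for 24 h, with 2 libraries per condition. Both groups were the unmodified line grown in DMEM with serum, and the mRNA libraries were made from total RNA.

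The table gives 1 pooled value per transcript, the authors' mean normalized read count over the libraries, and no value per library. The levels below therefore belong to no single condition. The study's methods also name a group given a lower dose of KH-3, which is not among the samples described here. The sources used here do not say which libraries were averaged, so the mean may also hold libraries of that group. Sequencing depth and the spread between replicates are unknown, no value below has an error, and no test was possible. Whether KH-3 changed any of these genes is not analysed here, because the only columns that bear on it are the authors' own comparison, which was not used. The lowest mean normalized read count in the table was 7.34, so a gene that is not listed may lie under that level or may be left out for another reason.

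NF-κB transcription factors are dimers of the subunits encoded by NFKB1, NFKB2, REL, RELA and RELB. Many of these dimers are held in the cytoplasm by IκB proteins until signals such as those of receptors for TNF or IL-1 trigger the degradation of these inhibitors. The released dimers switch on cytokine and chemokine genes together with their own inhibitors, while cytokines of the IL-6 family signal through the shared chain gp130 to STAT3. Many cytokine mRNAs are short-lived and carry AU-rich elements in the 3′UTR, often built from the pentamer AUUUA, which decay factors and HuR can bind. Triple-negative breast cancer cells such as MDA-MB-231 are known for NF-κB activity and for the secretion of chemokines.

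The sequences below are the stretches of 30 bases in which AUUUA was densest. They were taken from the 3′UTR of the leading transcript of each gene, the protein-coding transcript with the highest level per length, in GENCODE release 44 on hg38. Such a window was read for 37 listed genes. It was not read for TNFRSF10A, TNFRSF10B and TNFRSF10D, which had 5, 5 and 12 copies of AUUUA in the 3′UTR. Of the 37 genes, 9 held 3 or more copies in the window. A window was read only where the 3′UTR held AUUUA, and the same count over all genes was not made. No excess of dense windows in this list can therefore be read from it. The windows of 7 of the 9 genes are shown, written 5′ to 3′ as RNA with every AUUUA in capitals.
CSF2, chr5:132076077-132076106, plus strand: aaauAUUUAUUUAUUUAUUUAUUUAaguuc
CXCL2, chr4:74097585-74097614, minus strand: uucuAUUUAUUUAUUUAUUUAUUUAuuugu
CXCL8, chr4:73743111-73743140, plus strand: ccuAUUUAuuAUUUAuguAUUUAUUUAagc
CXCL1, chr4:73870674-73870703, plus strand: agucuucuAUUUAUUUAUUUAuucauuagu
IL11, chr19:55365942-55365971, minus strand: cagaucuuAUUUAUUUAUUUAuuucaguac
OSMR, chr5:38935443-38935472, plus strand: uugucagcAUUUAUUUAUUUAuguaccuuu
PTGS2, chr1:186674316-186674345, minus strand: augaucauAUUUAUUUAUUUAuaugaacca

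In CSF2 and CXCL2 the window held 5 overlapping copies in 1 unbroken run, and in CXCL8 it held 4 copies in separate groups. The remaining windows shown held 3 copies each. The other genes with 3 copies in a window were IL1A and LIF, where the copies stood apart from each other.

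The cell line was checked by marker genes. Of 7 genes that mark mesenchymal-like breast cancer cells, 6 lay above the median of all genes, with VIM at percentile 99.0 and AXL at 98.5, while SPARC lay at 41.5. ESR1, PGR and CDH1 were not listed, and ERBB2, GATA3, FOXA1 and EPCAM lay between 24.1 and 43.3 mean normalized reads per kb. Of 7 leukocyte genes, only CSF1R was listed, at 2.60 reads per kb, and PTPRC, CD14 and ITGAM were not. Of the endothelial genes PECAM1, VWF and CDH5, the highest reached 4.08 reads per kb. The fibroblast genes COL1A1 and PDGFRB reached 29.7 and 20.3 reads per kb, and DCN was not listed.

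To compare genes, the mean normalized read count of each protein-coding transcript was divided by its length in kb and summed over the gene, which is called the level here, in reads per kb. The percentile of a gene is its place among the levels of all 12120 genes. The median level of the 51 genes was 141 reads per kb, at a median percentile of 55.0, beside a median level of 117 over all genes. Of the list, 16 genes lay above the upper quartile of all genes and 13 below the lower quartile, so it spread over most of the range. The levels ran from 8.62 reads per kb for SOCS1 to 1871 for TNFRSF12A. Genes that follow each other closely in this order cannot be told apart, since no replicate error is known.

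**Figure D1:**
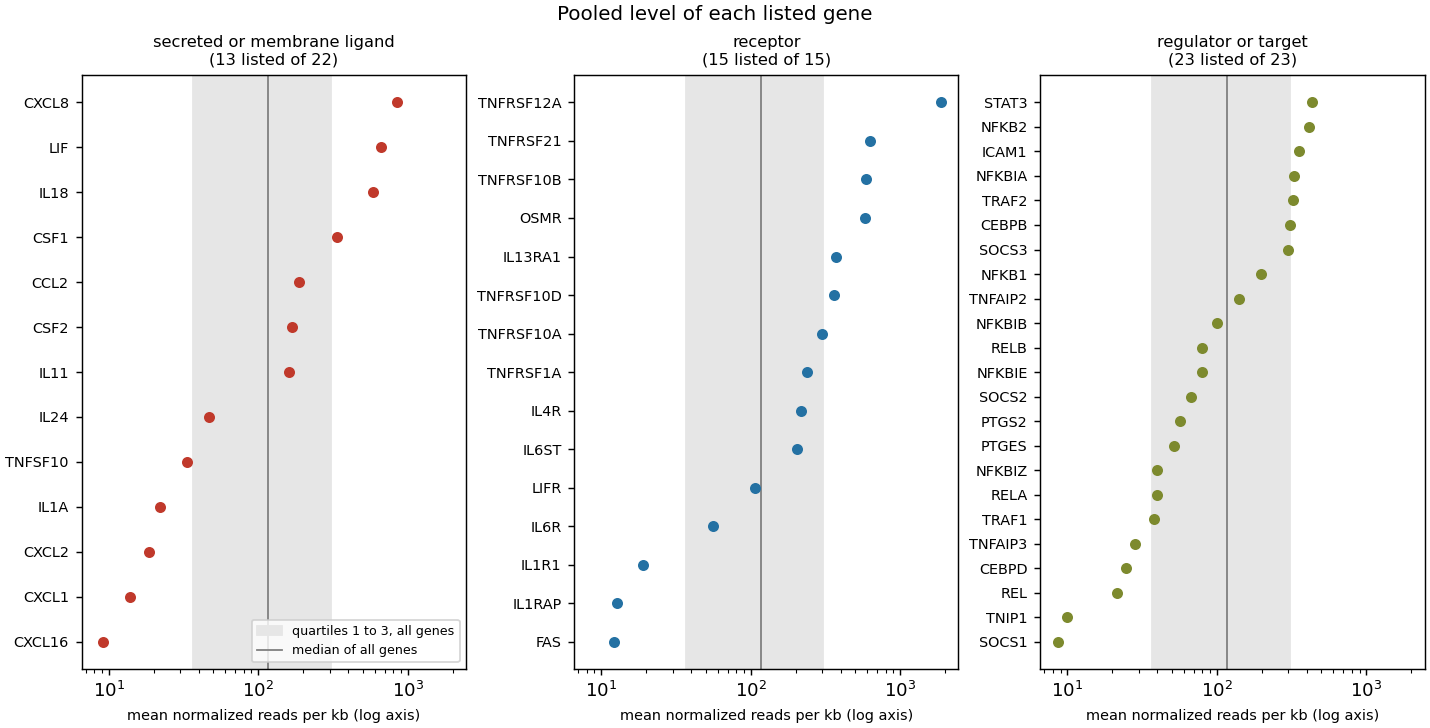
Pooled level of the 51 listed genes, as mean normalized reads per kb of transcript on a log axis, with ligands, receptors and regulators or targets in separate panels and 1 point per gene. The grey band spans 36.6 to 306 reads per kb, the lower and upper quartile of all 12120 genes, and the line marks their median of 117. TNFRSF12A stands alone at the top with 1871 reads per kb, and the chemokines CXCL2, CXCL1 and CXCL16 lie at the low end with 18.5, 13.9 and 9.12.

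All 9 genes that were not listed encode ligands. They were IL6, IL1B, IL32, CXCL3, CXCL5, CCL5, CCL20, CSF3 and TNF, and no transcript of any type was listed for them. Thus 13 of 22 ligand genes were listed, or 59.1%, against all 15 receptor genes and all 23 genes of the remaining class, the regulators and targets. This class holds the NF-κB subunits, IκB proteins, adaptors, feedback inhibitors, STAT3 and C/EBP factors, together with ICAM1, PTGS2 and PTGES. For comparison, 60.2% of the 19061 gene symbols with a MANE Select transcript, the reference transcript agreed between annotation groups, had a protein-coding row in the table. Since the genes were chosen with earlier results of these data known, the shares by class may follow from that choice. They were not tested.

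Among the chemokines, CXCL8, the neutrophil attractant interleukin-8, was far above the rest. Its level was 843 reads per kb from 1424 mean normalized reads, at percentile 91.9. CCL2, which attracts monocytes, had a level of 187 at percentile 62.9. CXCL8 was thus 4.51 times as high as CCL2 per kb. CXCL2 and CXCL1, close paralogs that act on the same receptor as CXCL8, had levels of 18.5 and 13.9 from only 22.5 and 15.3 mean normalized reads. The level of CXCL8 was 45.6 times that of CXCL2 and 60.6 times that of CXCL1. CXCL16, a membrane-bound chemokine, was lowest of the ligands with 9.12 reads per kb from 20.3 reads.

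CXCL1, CXCL2 and CXCL3 lie in a cluster on chromosome 4 and share sequence, so their reads may be hard to divide. The reference mRNAs of CXCL1 and CXCL2 were 90.7% identical over aligned bases, those of CXCL2 and CXCL3 78.9%, and those of CXCL1 and CXCL3 77.5%. Of the stretches of 50 bases in CXCL1, 5.33% occur exactly in CXCL2 and 0.533% in CXCL3. Since most stretches differ, reads can in principle be assigned, yet the values of CXCL1 and CXCL2 and the missing row of CXCL3 are uncertain for this reason and for their few reads.

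In the IL-6 family, LIF, a ligand that signals through gp130 and LIFR, reached 664 reads per kb from 1930.4 mean normalized reads, at percentile 89.0. IL11, which also signals through gp130, had a level of 161 at percentile 58.7. LIF was 4.11 times as high as IL11, and IL6 itself was not listed.

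Of the IL-1 family, IL18 had a level of 584 reads per kb at percentile 87.3. IL1A, an alarmin released by stressed cells, was at 21.9 reads per kb, and the level of IL18 was 26.6 times as high. IL24 had a level of 46.7 at percentile 29.3. CSF1, the growth factor of macrophages, had a level of 337 from 1357 reads, and CSF2, which encodes GM-CSF, of 169 from 133 reads. Per kb, CSF1 was 2.0 times as high, a smaller ratio than in reads, since the leading CSF1 transcript is 4210 bases long and that of CSF2 787. TNFSF10, which encodes the death ligand TRAIL, had a level of 33.3 reads per kb at percentile 23.6.

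The receptors were higher as a class, with a median level of 236 reads per kb at percentile 69.0 and with 10 of 15 above the median of all genes. Among the receptor chains of the IL-6 family, OSMR, which pairs with gp130 to bind oncostatin M, was highest with 581 reads per kb from 2912 reads, the most reads of any gene in the list. IL6ST, which encodes gp130, had a level of 205, LIFR of 107 and IL6R, the chain specific for IL-6, of 55.7. gp130 was thus 3.69 times as high as IL6R and 1.93 times as high as LIFR at the mRNA level. IL13RA1 and IL4R, which together form a receptor for IL-4 and IL-13, had levels of 369 and 215. Both chains of the IL-1 receptor were low, with 19.0 reads per kb for IL1R1 and 12.7 for IL1RAP, at percentiles 15.9 and 11.8.

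The TNF receptor family held the highest level of all. TNFRSF12A, which encodes the TWEAK receptor Fn14, had a level of 1871 reads per kb from 1787 reads at percentile 97.2, and this was 2.22 times the level of CXCL8. TNFRSF21, also known as death receptor 6, followed with 625 reads per kb. Of the TRAIL receptors, TNFRSF10B had a level of 592, the decoy receptor TNFRSF10D of 362 and TNFRSF10A of 299, all well above the 33.3 of their ligand. TNFRSF1A, the main receptor of TNF, had a level of 236, although TNF was not listed. FAS stood apart with 12.1 reads per kb from 31.1 reads, and TNFRSF10B was 48.8 times as high.

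Of the NF-κB subunits, NFKB2, the precursor of p52, had the highest level with 414 reads per kb at percentile 81.4. NFKB1, the precursor of p50, had 196, so NFKB2 was 2.11 times as high. RELB followed with 79.8 reads per kb, RELA with 39.7 and REL with 21.5. RELA encodes p65, the most widely used transactivating subunit, and it lay at percentile 26.4. Its MANE Select transcript had no row in the table, and its level rests on 2 other transcripts with 65.1 and 43.1 mean normalized reads. The same holds for the MANE Select transcripts of NFKB2, REL, FAS and TNIP1, so the levels of these 5 genes may miss reads of a transcript that was not listed. For 46 of the 51 genes, or 90.2%, the MANE Select transcript was listed, beside 86.1% of all genes, and the difference of releases bears on both shares.

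The genes of the IκB family differed among themselves. NFKBIA, the classical inhibitor IκBα and itself an NF-κB target, had a level of 327 reads per kb at percentile 76.4. NFKBIB had 99.6, NFKBIE 79.6 and the nuclear, atypical member NFKBIZ 39.8. NFKBIA was 4.10 times as high as NFKBIE. The feedback genes TNFAIP3, which encodes the ubiquitin-editing enzyme A20, and TNIP1, its binding partner, were low, with 28.2 and 10.0 reads per kb. TNFAIP2 had a level of 141. The adaptor TRAF2 had 325 reads per kb, 8.62 times the 37.7 of TRAF1, which is itself induced by NF-κB.

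ICAM1, the adhesion molecule that binds leukocyte integrins, had a level of 355 reads per kb from 1075 reads. PTGS2, which encodes the prostaglandin synthase COX-2, and PTGES, which acts after it, had levels of 56.5 and 51.6. STAT3, the transcription factor that IL-6 family cytokines activate, had 432 reads per kb at percentile 82.2. Of the SOCS genes, which encode inhibitors of cytokine signalling, SOCS3 had a level of 300.5, 4.51 times that of SOCS2 and 34.8 times that of SOCS1. SOCS1 was the lowest of the list with 8.62 reads per kb from 10.6 reads. CEBPB, a factor that acts together with NF-κB on cytokine genes, had a level of 309, 12.5 times the 24.6 of CEBPD.

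A list of 30 further genes of the TNF, IL-1, NF-κB and JAK-STAT pathways, together with the ZFP36 family of AU-rich element decay factors, was examined for comparison. Of these, 29 were listed, with a median level of 153 reads per kb at percentile 57.1, and 18 lay above the median of all genes. The highest were IRAK1, a kinase of the IL-1 receptor complex, with 671 reads per kb, LTBR, the lymphotoxin receptor, with 536, and ZFP36L1 with 501. Of the IκB kinase complex, CHUK had a level of 447, and IKBKB was not listed. The regulatory subunit IKBKG had a level of 16.0 from only 17.8 mean normalized reads, so its level is uncertain.

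The 3′UTR of the leading transcript was found in GENCODE release 44 for 50 of the 51 genes, and RELB was the exception. AUUUA occurred in 40 of the 50, or 80.0% (95% exact Clopper-Pearson interval 66.3% to 90.0%, which treats genes as independent), beside 71.2% of 11444 genes over the whole table. Of these genes 29 held 3 or more copies, or 58.0%, beside 43.8% of all genes. The longer element UAUUUAU occurred in 24, or 48.0%, beside 33.4%. The median 3′UTR was 1238 bases long, close to the 1157 bases of all genes, and the median number of AUUUA per kb was 2.54, beside 1.68. These differences are a description and were not tested. The gap in the share with AUUUA was narrower when the longest listed 3′UTR was used, as given in the section on processing.

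**Figure D2:**
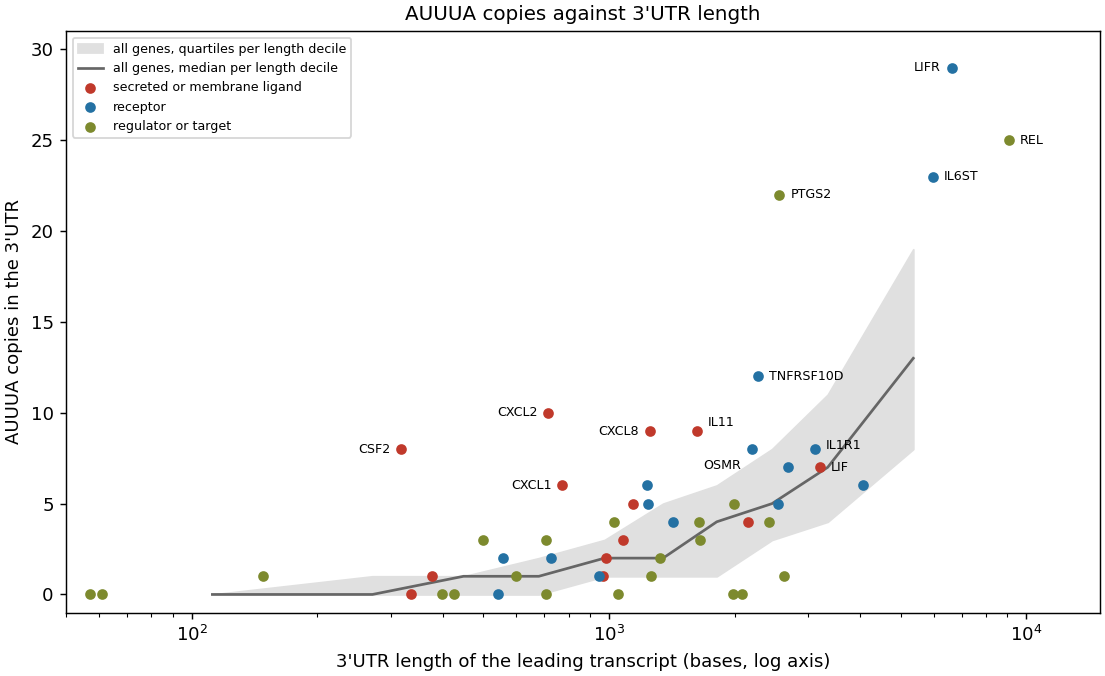
Copies of AUUUA in the 3′UTR of the leading transcript against the length of that 3′UTR in bases on a log axis, for 50 genes coloured by class. The line and the grey band give the median and the lower and upper quartile of all genes in each length decile. CSF2 with 8 copies in 318 bases, CXCL2 with 10 in 716 and PTGS2 with 22 in 2562 lie far above the band, while RELA with 1986 bases has none.

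By class, ligands and receptors were alike in the share with AUUUA, and ligands had the highest share with the longer element. AUUUA occurred in 12 of 13 ligand genes, UAUUUAU in 10 of 13, and the median 3′UTR was 984 bases long. Among the receptors AUUUA occurred in 14 of 15 and UAUUUAU in 7 of 15, with a longer median 3′UTR of 2197 bases. Among the regulators and targets the counts were 14 of 22 and 7 of 22. CSF2 had 8 copies of AUUUA in a 3′UTR of 318 bases, CXCL2 had 10 in 716 bases, CXCL1 had 6 in 772 and CXCL8 had 9 in 1252. PTGS2 had 22 copies in 2562 bases. The highest number, 29, was in LIFR, whose 3′UTR has 6632 bases. IL18 was the only listed ligand without AUUUA, and TNFRSF1A the only receptor. RELA, TNFAIP2, TRAF2 and NFKBIE, with 3′UTRs from 706 to 2079 bases, had none either.

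Since longer 3′UTRs hold more copies, each gene was also set beside all genes in its decile of 3′UTR length. The number of AUUUA was above the decile median in 25 of 50 genes, below it in 15 and equal in 10. By class it was above in 7 of 13 ligands and 11 of 15 receptors, and in 7 of 22 regulators and targets. The same shares over all genes were not computed, and small copy numbers often equal the median. No excess can therefore be read from these counts alone. Among genes with a 3′UTR of 706 to 2186 bases, 21 of the 25 listed here held AUUUA, or 84.0%, beside 81.5% of 4049 genes. UAUUUAU occurred in 13 of the 25, or 52.0%, beside 32.4%. At like length the gap was thus wider for the longer element than for AUUUA itself, and neither was tested.

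Among the ligands, genes with several copies of AUUUA lay at different levels, and a relation of copies to level was not tested. CXCL8 with 9 copies and LIF with 7 were among the 3 highest ligands, at 843 and 664 reads per kb. CXCL2 with 10 copies and CXCL1 with 6 were among the lowest, at 18.5 and 13.9 reads per kb. CSF2 with 8 copies and IL11 with 9 lay between them, at 169 and 161.

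Promoters, taken as the 250 bases before to the 50 after the gene start in RefSeq on GRCh38.p14, were given for 45 of the 60 genes, listed or not. The 10-base NF-κB consensus was written GGGRNNYYCC, with R for A or G, Y for C or T and N for any base. Sites of another form were not counted. A match on either strand occurred in 15 of the 45 promoters, or 33.3%. The share was 10.8% over all 27305 promoters and 13.1% over the promoters of the genes in the table. The match occurred in 7 of 15 ligand promoters, 2 of 11 receptor promoters and 6 of 19 promoters of regulators and targets. The list was chosen to hold well-known targets of these pathways, so a higher share than over all promoters may follow from that choice. The chemokine genes CXCL1, CXCL2, CXCL3 and CXCL5 hold the same 10 matching bases and were each counted. The match was found in 5 of 7 promoters of genes that were not listed and in 10 of 38 of those that were. These groups differ in class, since all genes that were not listed encode ligands, the class with the largest share of matches. The paralogs CXCL3 and CXCL5 are among the 5, and the contrast was not tested. TATAAA on either strand occurred in 9 of the 45 promoters, beside 12.0% of all promoters and 5.47% of those of the genes in the table. The windows below show the match in 3 paralogous chemokine genes and in 2 genes of the NF-κB system itself, with the 10 matching bases in capitals.
CXCL1, chr4:73869304-73869333, plus strand: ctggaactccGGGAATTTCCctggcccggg
CXCL2, chr4:74099254-74099283, minus strand: ctggagctccGGGAATTTCCctggcccggg
CXCL3, chr4:74038749-74038778, minus strand: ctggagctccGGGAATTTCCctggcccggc
NFKB1, chr4:102501300-102501329, plus strand: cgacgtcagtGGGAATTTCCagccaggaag
NFKBIA, chr14:35404811-35404840, minus strand: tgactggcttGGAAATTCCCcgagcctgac

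The 10 capitals were the same in CXCL1, CXCL2, CXCL3 and NFKB1, and the match shown for NFKBIA was on the opposite strand. Matches on both strands can overlap at 1 place, as in CXCL1, CXCL2 and CXCL3, and each promoter was counted once. In the chemokine genes it began 78 or 79 bases before the gene start, as the promoter table gives it. A match says only that these letters are present. CXCL1 and CXCL2 held a match at 13.9 and 18.5 reads per kb, NFKBIA at 327 and NFKB1 at 196. The promoter window of CXCL8, at 843 reads per kb, held no exact match to this consensus, and other forms of the site were not searched. Whether a match goes with the level was not tested.

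The 51 genes had 104 protein-coding transcripts in the table. In 19 genes there was 1 such transcript, and in 32 there were several. In these 32 the leading transcript held a median of 67.0% of the gene's level, beside 67.5% in all 7676 genes with several transcripts. CXCL8 was nearly all 1 transcript, with 98.3% of its level in ENST00000307407.7. SOCS2 was divided most, over 7 transcripts, of which the highest held 21.5%. RELB was the other gene without a majority transcript, and its 3 transcripts held 40.6%, 33.6% and 25.8%. A further 10 genes had a leading share between 50% and 60%. In TNFRSF12A the shares were 51.2% and 48.8%, in NFKBIB 50.1% and 49.9%, and in RELA 51.5% and 48.5%. These shares depend on how overlapping reads were divided between transcripts by the authors' estimator, and they have no error.

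**Figure D3:**
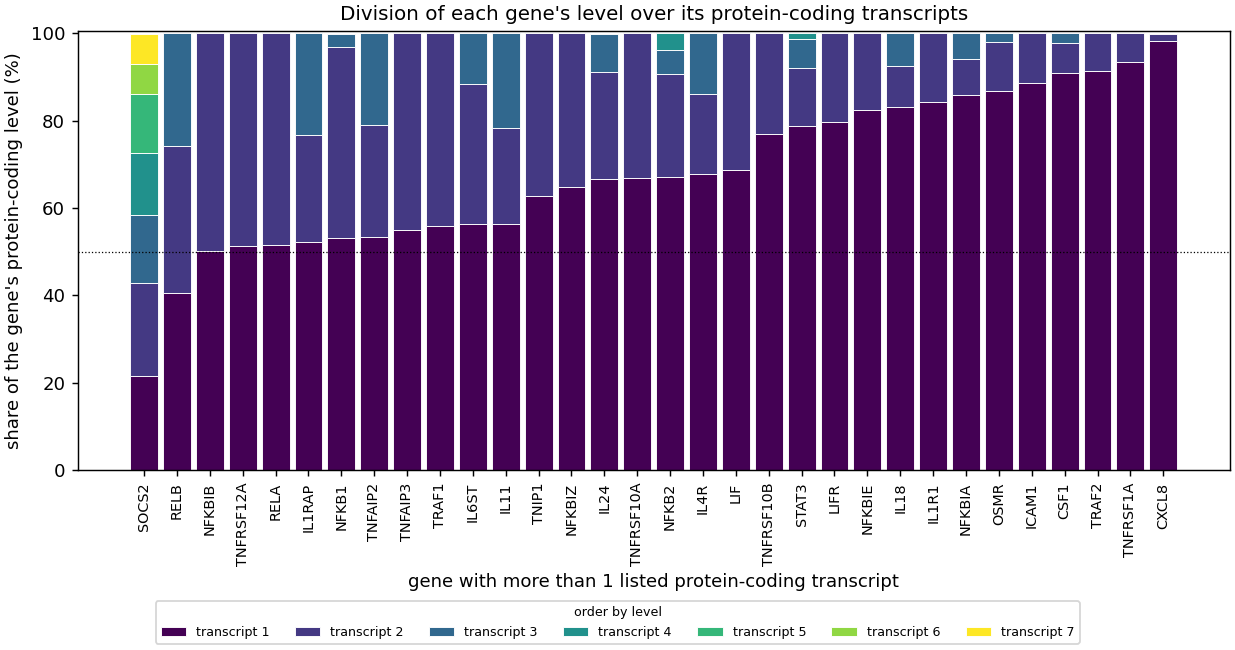
Share of each gene's protein-coding level, in percent, that each of its listed transcripts holds, for the 32 genes with several, in order of the leading share. Each bar is 1 gene and each colour is the rank of the transcript within it. Only SOCS2 and RELB have a leading transcript below the dotted line at 50%, and CXCL8 at the right is 98.3% 1 transcript.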

How the data were processed

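Per the labels, MDA-MB-231 cells received DMSO or 10 µM KH-3 for 24 h, and 2 mRNA libraries were sequenced per condition. The authors mapped reads to GENCODE release 24 transcripts with STAR and estimated reads per transcript with eXpress; versions are not given in the sources used here. The deposited mean normalized read count is a signal that the authors averaged over libraries; it is not divided by length. The remaining columns hold the authors' comparison of KH-3 with DMSO (log2 fold change, p-value and q-value) and were not used. No library has its own column, so depth, replicate spread and tests of the conditions could not be computed, and values carry no error.

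Levels were reads per kb of transcript, summed over protein-coding transcripts of a symbol. Transcript IDs without version were matched to GENCODE release 44 on hg38 (96.6% found). Of 51 leading transcripts 13 had the same length in both releases, so 3′UTRs may differ from those the authors used. Motifs were exact string matches, overlaps counted, and promoters were searched on both strands. The functions were tested on made data with known answers.

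All listed genes are named by role, those of highest and lowest level, divided isoforms and the CXCL1, CXCL2 and CXCL3 paralogs in more detail, with the 3 highest of the further pathway genes; marker genes and the promoter and IκB kinase examples were named after their values were seen. The members and lists were chosen with earlier results of these data known. The work used Python 3.11.15, pandas 2.3.3, numpy 2.4.6, scipy 1.17.1, matplotlib 3.10.9 and Biopython 1.88.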

Additional observations from a re-analysis of the deposited data

How the results depend on the processing

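The number of listed genes was 51 of 60 with any transcript type as well, and 47 with a mean normalized read count of at least 20. The median percentile of the 51 genes, 55.0 in the report, was 49.8 with the leading transcript only, 51.9 with transcripts of all types and 44.1 with reads not divided by length, so its side of the median over all genes depends on the measure. Of the 10 highest genes, 9, 9 and 8 stayed among the 10 highest under these measures, and the largest shifts in percentile were 20.7 for SOCS2, 11.3 for RELA and 33.2 for CCL2. AUUUA occurred in 40 of 51 genes with the longest 3′UTR among listed transcripts, beside 75.6% of all genes. The gap was thus narrower than with the leading transcript, where the shares were 80.0% and 71.2%. With at least 3 copies the count fell to 29 of 50, and with UAUUUAU to 24 of 50, by the stricter definitions themselves. No paired analysis was possible because the table has no column per library, and leaving out a replicate could not be done for the same reason. Genes with few reads, such as SOCS1 with 10.6 and CXCL1 with 15.3, have the least certain levels.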

Other observations

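Besides protein-coding transcripts, 19 of the 51 listed genes had 30 transcripts of other types, of which 17 were retained introns, 7 were annotated for nonsense-mediated decay and 6 were processed transcripts. For IL1RAP the decay-annotated transcripts held 75.8% of all mean normalized reads of the symbol, with 123 reads against 39.1 in its protein-coding transcripts. For NFKBIB the share of a decay-annotated transcript was 53.8%, from 179 reads. Retained introns held 27.8% of the reads of NFKBIA and 25.1% of those of IL18, and for RELA they held 108 reads, as did its protein-coding transcripts, and a processed transcript held 44.4% of those of FAS and 30.2% of those of PTGS2. CXCL8 had 3.18% in a retained intron. These values were read from reads not divided by length, as the pooled mean, and the genes were named after their values were seen.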
